A study of Mus musculus with 12 samples.

Results

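The nuclear-encoded respiratory chain genes were followed mouse by mouse in the hippocampus of Nell-1+/6R mice and WT mice. They were taken as protein-coding genes outside the mitochondrial chromosome whose mouse symbol begins with Nduf, Uqcr or Atp5, begins with Cox followed by a digit from 4 to 8, or is Sdha, Sdhb, Sdhc or Sdhd. A CPM (counts scaled to the library total) of at least 1 in at least 6 of the 12 mice was required. Of 95 genes with such a symbol, 87 passed, out of 27179 gene IDs in the table, of which 17937 were tested. By symbol, 38 belong to complex I, 8 are complex I assembly factors, 3 belong to complex II, 7 to complex III, 14 to complex IV and 17 to the ATP synthase.

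Each genotype was represented by 6 mice, 3 females and 3 males, all adults of 3 months. Nell-1+/6R mice carry 1 copy of the 6R allele of Nell-1, which was induced with N-ethyl-N-nitrosourea, beside a normal copy in every cell of the animal, and WT mice were littermates without it. Whole hippocampus was used, so fewer cells of a type and less RNA per cell cannot be told apart. Library totals ran from 10834905 to 16016317 counts. Nell1 stood at 30.5 to 44.7 CPM in WT mice and at 16.5 to 21.4 CPM in Nell-1+/6R mice, without overlap (log2 fold change -0.93, SE 0.0803, adjusted p = 1.5e-04 in edgeR's quasi-likelihood test).

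Respiratory complexes sit in the inner mitochondrial membrane. Complex I takes electrons from NADH and complex II takes them from succinate. Both pass them to ubiquinone, from which complex III hands them through cytochrome c to complex IV, where oxygen is reduced. Complexes I, III and IV pump protons, and the ATP synthase uses the gradient to make ATP. Neurons draw most of their ATP from this chain. Most subunits are encoded in the nucleus and imported, while a core set is made inside the mitochondrion, and both sets have to be matched. Nuclear respiratory factor 1 (NRF1), the ETS-family factor GABP and YY1 are known for binding promoters of these genes.

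Promoters of the members were read to show which of these letters they hold. RefSeq windows (GRCm38.p6, 250 bases before to 50 after the start) were found for 71 of the 87 members, with 76 windows in all. Every string was searched on both strands. The NRF1 letters, GCGCA then any base then GCGC, occurred in 19 of the 76 windows (25%), against 4.60% of all 32851 windows and 8.10% of the 16839 windows of tested genes. Its palindromic form, with T as the free base, which the first search includes, was in 9.21% of members' windows against 1.67% of those of tested genes. CCGGAAG, for ETS factors and GABP, was in 22.4% against 14.2%. AAGATGGCG, for YY1, was in 10.5% against 2.32%. TATAAA was in 9.21% against 8.03%. At least 1 of the NRF1, GABP and YY1 strings stood in 38 windows (50%), against 22.3% of the windows of tested genes and 43.2% of those of cytoplasmic ribosomal protein genes. The median GC content was 58.8% in the members' windows and 59.7% in those of tested genes. Windows of cytoplasmic ribosomal protein genes held the NRF1 letters in 7.41% and CCGGAAG in 29.6%. A match is a description of the letters and not a bound site.

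The promoters of 5 complex I genes are shown because these genes have the smallest p for genotype (Ndufb4), for sex (Ndufs6, Ndufa6 and Ndufc1) or for the genotype by sex difference (Ndufa8) below. They run 5′ to 3′ along the gene's strand, and capitals mark a match to the NRF1 or YY1 letters on either strand. Ndufb4 holds 3 NRF1-type matches, Ndufa6 and Ndufa8 hold 1 each, Ndufs6 holds an NRF1-type and a YY1 match, and Ndufc1 holds a YY1 match. A match in all 5 is not typical of the members. Windows of Ndufa7, the next complex I gene by p for sex, hold no NRF1, GABP or YY1 string. Neither does that of Cox5a, named below for genotype.
Ndufb4 promoter, chr16:37654319-37654618, minus strand: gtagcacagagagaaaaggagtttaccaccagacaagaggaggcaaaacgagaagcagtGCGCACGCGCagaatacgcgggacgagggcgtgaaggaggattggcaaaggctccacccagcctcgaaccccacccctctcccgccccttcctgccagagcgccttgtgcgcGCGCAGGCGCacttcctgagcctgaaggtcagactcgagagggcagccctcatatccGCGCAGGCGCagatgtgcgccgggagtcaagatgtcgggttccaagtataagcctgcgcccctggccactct
Ndufs6 promoter, chr13:73328433-73328732, minus strand: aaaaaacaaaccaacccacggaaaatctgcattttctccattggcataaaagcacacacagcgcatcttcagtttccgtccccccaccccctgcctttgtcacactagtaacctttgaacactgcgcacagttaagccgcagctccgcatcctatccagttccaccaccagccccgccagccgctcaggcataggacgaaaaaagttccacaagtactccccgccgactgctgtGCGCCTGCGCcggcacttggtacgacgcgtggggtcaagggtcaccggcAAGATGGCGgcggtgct
Ndufa6 promoter, chr15:82354242-82354541, minus strand: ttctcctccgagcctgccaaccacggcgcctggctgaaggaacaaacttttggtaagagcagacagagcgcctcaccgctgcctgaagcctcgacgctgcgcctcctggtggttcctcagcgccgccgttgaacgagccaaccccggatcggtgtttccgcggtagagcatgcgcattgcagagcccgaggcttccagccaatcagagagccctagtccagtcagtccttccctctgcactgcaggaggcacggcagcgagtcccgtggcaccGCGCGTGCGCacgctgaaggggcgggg
Ndufc1 promoter, chr3:51408906-51409205, minus strand: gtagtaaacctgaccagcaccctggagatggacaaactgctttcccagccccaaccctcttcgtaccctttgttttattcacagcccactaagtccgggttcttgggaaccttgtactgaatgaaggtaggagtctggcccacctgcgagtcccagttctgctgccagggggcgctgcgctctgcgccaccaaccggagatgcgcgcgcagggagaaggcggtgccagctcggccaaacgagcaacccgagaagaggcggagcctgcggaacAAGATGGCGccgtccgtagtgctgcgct
Ndufa8 promoter, chr2:36049289-36049588, minus strand: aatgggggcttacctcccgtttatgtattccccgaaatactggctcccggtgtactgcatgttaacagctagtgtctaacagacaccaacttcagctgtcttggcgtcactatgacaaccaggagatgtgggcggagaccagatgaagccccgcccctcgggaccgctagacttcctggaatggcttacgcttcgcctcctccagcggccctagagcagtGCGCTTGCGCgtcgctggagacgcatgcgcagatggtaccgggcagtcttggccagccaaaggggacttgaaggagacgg

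Levels were compared between genes only per length, as RPKM (CPM divided by the union of annotated exons in kilobases). The median member stood at 36.0 RPKM. Complex III had the highest median, 61.1 RPKM, and the complex I assembly factors the lowest, 8.85 RPKM. Assembly factors help to build the complex and are not part of it.

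The 5 highest members were subunits of complex IV and of the ATP synthase. Cox8a, a small membrane subunit of complex IV, stood at 378 ± 37.7 RPKM (SD, n = 12), and Cox6a1 at 321 ± 31.1 RPKM. Atp5a1 and Atp5b, the alpha and beta subunits that form the catalytic head of the ATP synthase, stood at 254 ± 9.07 and 242 ± 13.2 RPKM. Cox4i1, the common form of subunit IV, followed at 210.4 ± 17.4 RPKM. The ranges over mice of Cox8a (330.2 to 454 RPKM) and Cox6a1 (286 to 389 RPKM) overlapped, as did those of Atp5a1 (241 to 266 RPKM) and Atp5b (223 to 261 RPKM). With the longest transcript as the length, Atp5b came first at 534 RPKM and Cox8a at 426 RPKM came after Cox4i1, so the order at the top rests on which exons are counted.

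Subunits of 1 complex differed in level. In complex I the highest was Ndufb9, an accessory subunit of the membrane arm, at 124 ± 9.90 RPKM. The core subunit Ndufv1, which binds NADH, stood at 58.1 ± 3.80 RPKM. Ndufs1, the largest subunit, stood at 13.3 ± 0.612 RPKM, and at 40.5 RPKM by its longest transcript. The lowest by the union of exons was Ndufab1, the mitochondrial acyl carrier protein, at 1.79 ± 0.262 RPKM. Its annotated exons span 6883 bases, and 9.27% of its 50-base stretches occur in other annotated transcripts. Its last place therefore depends on the length used.

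In complex II, the flavoprotein Sdha stood at 89.6 ± 4.02 RPKM, the iron-sulfur subunit Sdhb at 46.5 ± 3.15 RPKM and the membrane anchor Sdhc at 26.0 ± 2.45 RPKM, and their ranges did not overlap. In complex III, Uqcr10 was highest (111 ± 12.4 RPKM), the Rieske iron-sulfur protein Uqcrfs1 stood at 74.7 ± 6.25 RPKM and Uqcrb was lowest (21.3 ± 2.52 RPKM). In the ATP synthase, Atp5l, which encodes subunit g of the membrane part, was lowest at 1.72 ± 0.290 RPKM. Its annotated exons span 6443 bases, and 9.99% of its 50-base stretches occur in other annotated transcripts.

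**Figure D1:**
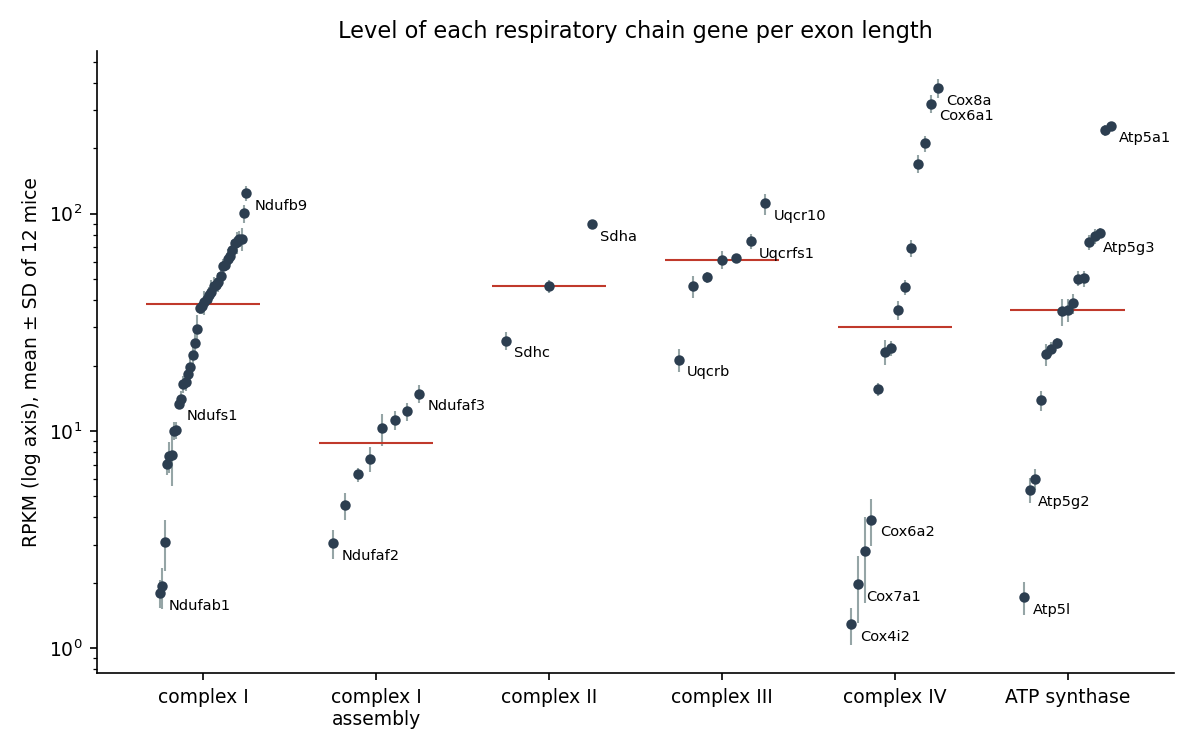
RPKM (log axis) of each of the 87 members, mean ± SD of 12 mice, by complex; red lines are the medians of the complexes. Complex III has the highest median (61.1 RPKM) and the assembly factors the lowest (8.85 RPKM), while complex IV runs from 1.29 to 378 RPKM.

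Complex IV exists with subunit forms that differ between tissues, and in the hippocampus the common forms were far above the others. Cox4i1 stood at 210.4 RPKM and Cox4i2, a form of lung and of low oxygen, at 1.29 ± 0.251 RPKM. Cox6a1 stood at 321 RPKM, and its heart and muscle form Cox6a2 at 3.90 ± 0.940 RPKM. Cox6b1 stood at 169 ± 16.1 RPKM, and its testis form Cox6b2 at 2.82 ± 1.21 RPKM. Cox7b, at 69.6 ± 6.37 RPKM, was far above the testis form Cox7b2, which had 0 to 6 counts per mouse and was not a member. For the 3 genes of the ATP synthase c subunit, whose mature proteins are alike, Atp5g3 stood at 79.1 ± 6.29 RPKM, Atp5g1 at 6.03 ± 0.675 RPKM and Atp5g2 at 5.38 ± 0.701 RPKM. The last value is uncertain, since 38.3% of the stretches of Atp5g2 are shared with other transcripts. For Atp5g1 the shared part is 11.1%. The annotated exons of Atp5g1 span 4912 bases against 1675 for Atp5g2, at a median CPM of 29.5 against 8.73. The closeness of their RPKM therefore rests on the length used.

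Of the 8 genes that the CPM limit left out, some encode subunits that every mitochondrion is thought to need. Sdhd, the other membrane anchor of complex II, had 0 to 3 counts per mouse against 883 to 1355 for Sdhc. Uqcr11 of complex III had 0 counts in all 12 mice. Cox7a2, the common partner of the muscle form Cox7a1, had 5 to 16 counts per mouse. Sdhd and Cox7a2 share no stretch of 50 bases, the read length, with another annotated transcript (GENCODE M21). Uqcr11 shares 6.27% of its stretches. No level was read from the counts of these 3 genes, and Cox7a1 and Cox7a2 were not compared.

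The other genes left out were Cox8b (0 to 36 counts), a heart and muscle form, the testis forms Cox8c (0 to 1 counts) and Cox7b2, and the near-copies Ndufb4b (0 to 2 counts) and Ndufb4c (5 to 27 counts). Cox8b was highest in female Nell-1+/6R replicate 1 (2.84 CPM) and male WT replicate 3 (2.28 CPM). The summed CPM of 8 choroid plexus epithelium markers was also highest in those mice, at 5312 and 4605. The part of those cells in the Cox8b counts was not tested. Just inside the limit, the CPM of the sixth-highest mouse was 1.11 for Cox4i2, 1.13 for Cox7a1 and 2.18 for Ndufa4l2. Just outside it was 0.943 for Ndufb4c, 0.600 for Cox7a2 and 0.467 for Cox8b.

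The spread between mice was set beside that of other genes. The SD of log2 CPM over the 12 mice had a median of 0.126 for members against 0.214 for all genes tested, and for the 43 members within the members' interquartile range of mean log2 CPM it was 0.134, against 0.127 for all 4528 genes in that range. The steadiest were Atp5a1 (SD 0.0421), Uqcrc2 (0.0449), a core protein of complex III, and Sdha (0.0572). Atp5a1 ran only from 756 to 834 CPM over all mice. The most variable were Cox6b2 (SD 0.453), Cox7a1 (0.437) and Ndufa8 (0.365). Cox7a1 had 7 to 21 counts per mouse and Cox6b2 had 23 to 86.

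The members varied together from mouse to mouse. After each gene's log2 CPM was centred on its mean, the first component over 12 mice held 48.8% of the members' variance. Female Nell-1+/6R replicate 1 had the highest value of all mice for 38 of the 87 members and female Nell-1+/6R replicate 2 for 33. The median member stood 0.20 and 0.17 above its mean there, on the log2 CPM scale. Female Nell-1+/6R replicate 3 did not share this, with a median of -0.04 and the highest value for 1 member. The lowest value fell in male WT replicate 2 for 31 members (median -0.11) and in male Nell-1+/6R replicate 3 for 17 (median -0.09). The other mice had medians between -0.07 and 0.03.

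The structural subunits were high in the same pair of mice in complexes I, III and IV and the ATP synthase, but did not move alike in every mouse. In female Nell-1+/6R replicate 1 their medians were 0.20 for complex I, 0.22 for complex III, 0.21 for complex IV and 0.20 for the ATP synthase. The 8 complex I assembly factors stood at 0.02 there. The 3 members of complex II were spread, with Sdha at -0.09, Sdhb at 0.03 and Sdhc at 0.26. In female Nell-1+/6R replicate 2 the 6 groups stood between 0.14 and 0.21. In female WT replicate 1 complex I and the ATP synthase stood at 0.03 and 0.02, whereas complexes III and IV stood at -0.04 and -0.05. As a share of all counts, the members made up 0.884% and 0.854% in these mice and 0.716% to 0.816% in the other mice.

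**Figure D2:**
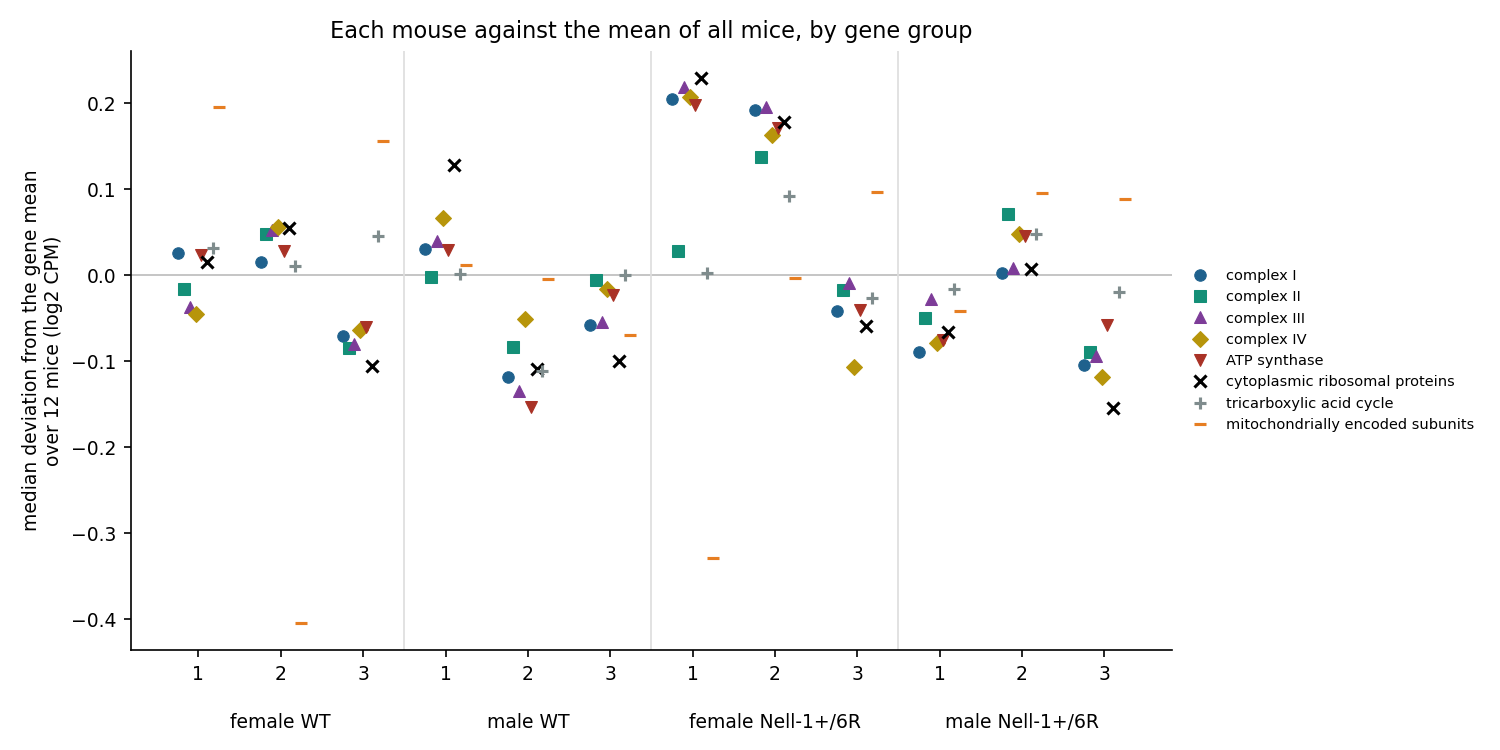
Median deviation of each gene group from its genes' means over 12 mice (log2 CPM), for every mouse. Complexes I, III and IV and the ATP synthase stand between 0.16 and 0.22 in female Nell-1+/6R replicates 1 and 2, and cytoplasmic ribosomal protein genes stand at 0.23 and 0.18 in the same mice.

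Other gene groups were set beside these values. The 87 cytoplasmic ribosomal protein genes, which belong to another organelle's machinery, stood at 0.23 and 0.18 in female Nell-1+/6R replicates 1 and 2. The 77 mitochondrial ribosomal protein genes stood at 0.08 and 0.13, and 18 tricarboxylic acid cycle genes at 0.00 and 0.09. The 16 glycolysis genes stood at 0.01 and 0.17, and all 16 were above their mean in female Nell-1+/6R replicate 2. The 13 subunits encoded in the mitochondrion had a median of -0.33 in female Nell-1+/6R replicate 1, where 1 of 13 was above its own mean, and of -0.00 in replicate 2. Their lowest median, -0.40, was in female WT replicate 2, where 0 of 13 stood above the mean and the members stood at 0.03. These 13 subunits took up 3.17% to 4.41% of the counts per mouse. Only mt-Nd1, mt-Nd2, mt-Nd4, mt-Nd5, mt-Nd6, mt-Cytb and mt-Co1 had at least 14400 counts in every mouse, whereas mt-Co2, mt-Co3, mt-Atp6, mt-Atp8, mt-Nd3 and mt-Nd4l had 1 to 132. The counts of those 6 genes may not measure their transcripts, so no level was read from them, and the median over the 13 includes them.

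Members and ribosomal protein genes share short transcripts. The median longest transcript was 1129 bases for members, 1232 bases for cytoplasmic ribosomal protein genes and 3194.5 bases for tested genes with a length. Among 1072 other genes with transcripts of up to 1000 bases, from which members and ribosomal proteins were left out, the median deviation was 0.14 in female Nell-1+/6R replicates 1 and 2. Among 5993 other genes with transcripts over 4000 bases it was -0.13 and -0.11. Members stood above the other genes of their class there: the 39 members of up to 1000 bases at 0.22 and 0.17, the 17 members over 2000 and up to 4000 bases at 0.06 and 0.14 (other genes 0.03 and 0.04), and the 4 members over 4000 bases at 0.27 and 0.25. The trend ran the other way in male Nell-1+/6R replicate 3, from -0.09 in the shortest to 0.10 in the longest class, and in male WT replicate 2, from -0.07 to 0.08. When each mouse's trend against length, taken from 16958 genes other than members and ribosomal proteins, was subtracted, the members' median was 0.07 in place of 0.20 in female Nell-1+/6R replicate 1 and 0.05 in place of 0.17 in replicate 2. This alternative was chosen after the data were seen.

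**Figure D3:**
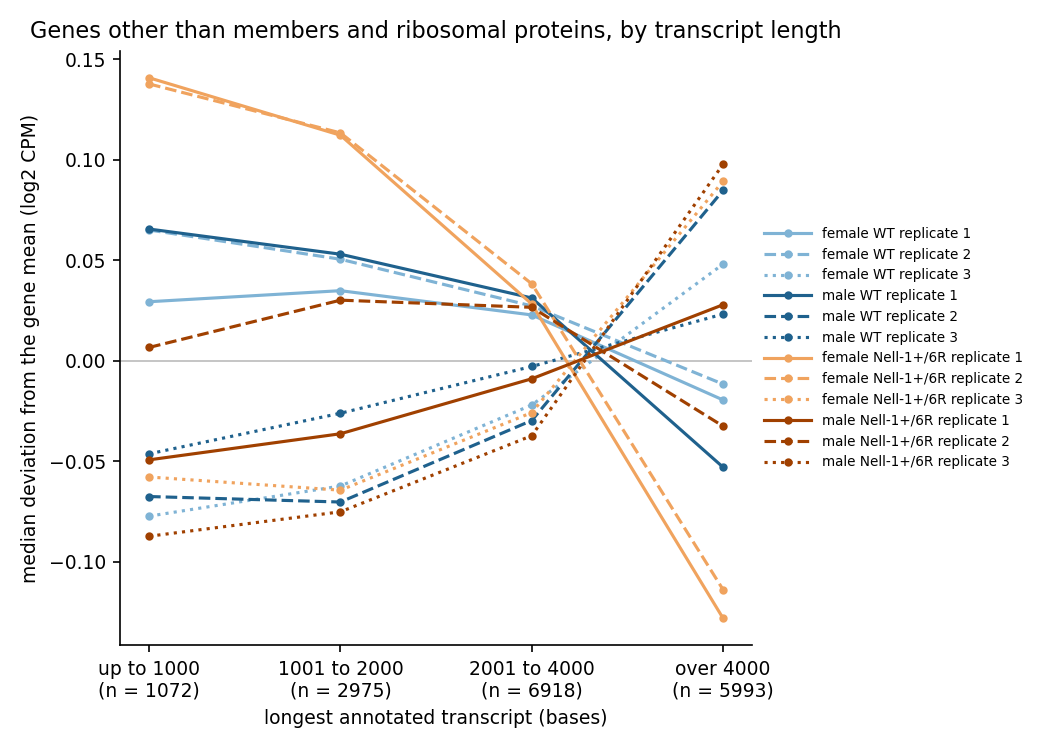
Median deviation from the gene mean (log2 CPM) of genes other than members and ribosomal proteins, in 4 classes of longest transcript, for each of the 12 mice. Female Nell-1+/6R replicates 1 and 2 fall from 0.14 in the shortest class to -0.13 and -0.11 in the longest.

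By genotype, almost no respiratory chain gene passed the test between Nell-1+/6R and WT hippocampus. Of the 87 members, 1 passed an unadjusted p under 0.05 (1.15%), against 3.26% of all genes tested, and 0 passed an adjusted p under 0.05 in edgeR, where 0.039% of all genes did, or in DESeq2. 0 reached the study's limit of an unadjusted p under 0.05 with a fold change above 1.5, against 1.46% of all genes. For no member did the CPM of the 6 Nell-1+/6R mice lie wholly above that of the 6 WT mice (0.0446% of all genes) or wholly below it (0.134%). The estimates leaned up: 74 of 87 were above 0, against 49.7% of all genes, and their median on the log2 scale was 0.05, from -0.16 (Cox7a1) to 0.23 (Ndufa8). The lean was shared by the complexes, with medians of 0.05 in complex I, 0.04 in complex II, 0.07 in complex III, 0.05 in complex IV and 0.05 in the ATP synthase. Cytoplasmic ribosomal protein genes had a median of 0.05 too. Without female Nell-1+/6R replicates 1 and 2, 39 of 87 members were above 0 and the median was -0.02.

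The member that passed was Ndufb4, an accessory subunit in the membrane arm of complex I (chr16:37647602-37654368, GRCm38). Its CPM in female WT mice was 19.9, 18.6 and 17.2 and in male WT mice 19.8, 17.3 and 17.3. In female Nell-1+/6R mice it was 21.4, 19.4 and 21.3 and in male Nell-1+/6R mice 19.9, 22.1 and 18.1. The genotypes overlapped between 18.1 and 19.9 CPM. The log2 fold change was 0.16 (SE 0.0698, unadjusted p = 0.0339, adjusted p = 1.00 in edgeR's quasi-likelihood test), and the unadjusted p was at or above 0.05 when any of 7 of the 12 mice was left out. Of the 50-base stretches of Ndufb4, 18.3% occur in 3 other genes, among them Ndufb4c, so its counts are uncertain.

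The next members by p did not pass. Ndufb2, another membrane-arm subunit, had a log2 fold change of 0.15 (SE 0.0728, unadjusted p = 0.0538). The assembly factor Ndufaf3 had 0.13 (SE 0.0668, unadjusted p = 0.0683) and Atp5md, a small subunit that holds ATP synthase dimers together, had 0.11 (SE 0.0614, unadjusted p = 0.0858). Ndufs6, Cox5a, Ndufa4, Atp5mpl, Atp5l and Cox7b had log2 fold changes of 0.09 to 0.18 and unadjusted p of 0.0962 to 0.125 in edgeR. Ndufa4 carries a complex I symbol but is now counted with complex IV. Atp5a1, the most even member, stood at 796 ± 31.7 CPM in WT mice (SD, n = 6), against 795 ± 27.8 CPM for the 6 Nell-1+/6R mice.

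Genes around the chain were set beside the 3.26% of all genes that passed by genotype. Of 13 subunits encoded in the mitochondrion (the 6 of low count included), 18 tricarboxylic acid cycle genes, 16 glycolysis genes and 16 regulators of mitochondrial gene expression, 0 passed in either direction. Of 39 tested assembly factors without an Nduf symbol, Lyrm7, which serves complex III, was higher (log2 fold change 0.43, unadjusted p = 0.0272). Of 20 genes of cytochrome c, coenzyme Q synthesis and carriers, Coq5, a coenzyme Q methyltransferase, was higher (0.12, unadjusted p = 0.0492). Both p-values are unadjusted and from edgeR, and neither gene passed after adjustment.

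By sex, more members differed, and all that passed were lower in males. An unadjusted p under 0.05 was reached by 18 of 87 members (20.7%), all lower in males, where 2.85% of all genes tested were lower, and by 0 members higher in males, where 1.87% of all genes were. Of these, 9 belong to complex I, 4 to the ATP synthase, 2 to complex IV, 1 to complex III and 2 are assembly factors of complex I. 0 members passed an adjusted p under 0.05 in edgeR or in DESeq2 (smallest adjusted p = 0.868 in edgeR, and 0.0335% of all genes). The median log2 difference of males from females was -0.08, with 8 of 87 members above 0 against 49% of all genes. Cytoplasmic ribosomal protein genes had a median of -0.09, and 13 of 87 passed, all lower in males.

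The number depended on which mice entered. Within WT mice 2 members were lower in males at an unadjusted p under 0.05 (background 1.42%), and within Nell-1+/6R mice 19 were (background 3.49%), both from the 4-group model. With female Nell-1+/6R replicates 1 and 2 left out, 6 members were lower (background 1.7%) and 1 higher in males (background 1.83%). With each mouse's length trend subtracted, 11 members were lower in males (background 2.84%) and the median was -0.04. When 1 mouse was left out at a time the number ran from 11, which was reached without the first replicate of either sex of Nell-1+/6R mice, to 32 without female Nell-1+/6R replicate 3, with 27 without male WT replicate 1. The share of all genes lower in males was 2.06% and 1.98% without those first replicates, 4.61% without female Nell-1+/6R replicate 3 and 3.26% without male WT replicate 1. Without the 3 mice with the highest choroid plexus marker sums it was 6 (background 1.39%, lower in males).

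Cell type markers were summed beside this. All 8 choroid plexus epithelium markers were detected in every mouse, and their summed CPM ran from 43.9 to 5312 in females and from 45.7 to 4605 in males. All 8 oligodendrocyte markers were detected, at 3937 to 7019 in females and 3001 to 5286 in males. They were highest in female Nell-1+/6R replicate 1 (7019) and female WT replicate 2 (6649), where the members' medians stood at 0.20 and 0.03 from their own means on the log2 scale. Female Nell-1+/6R replicate 2 had 5316 with the members at 0.17, and the lowest sum, 3001, was in male Nell-1+/6R replicate 3 with the members at -0.09. Principal neuron markers (14) stood at 9678 to 11825 in females and 10065 to 13052 in males. Astrocyte markers (8) stood at 2228 to 2578 and 2205 to 2407. The other lists ran from 602 to 704 and 557 to 658 for GABAergic neurons, 420 to 502 and 426 to 474 for microglia, and 146.7 to 189.1 and 148.2 to 177.7 for endothelial cells. Leptomeningeal fibroblast markers (8) ran from 105 to 357 in WT and 62.3 to 371 in Nell-1+/6R mice. By genotype, 6 of 8 were lower at an unadjusted p under 0.05 (median log2 fold change -1.01), against 2.2% of all genes. At that limit 2 of 8 GABAergic neuron markers were higher (8 above 0, median 0.09), against 1.06% of all genes. Principal neuron markers had 3 of 14 higher and 1 lower, endothelial cell markers 1 of 8 lower and red blood cell markers 2 of 3 lower. The other lists had 0. By sex, all 3 tested red blood cell markers were lower in males at an unadjusted p under 0.05 (median log2 difference -0.48), against 2.85% of all genes. The median sum over that list was 18.4 in females and 12.8 in males. No marker of these lists was at 0 in all mice. The part of these cells in the members' differences was not tested.

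The member with the smallest p for sex was Ndufs6 (chr13:73319876-73328482), a zinc-binding subunit that is needed to add the NADH-binding module. Its CPM in females was 28.7, 29.6 and 22.5 in WT and 32.8, 32.0 and 31.2 in Nell-1+/6R mice. In males it was 24.6, 23.5 and 22.3 in WT and 24.1, 23.7 and 21.8 in Nell-1+/6R mice. Of the females, 5 lay above every male and female WT replicate 3 lay among the males. The log2 difference was -0.30 (SE 0.0751, unadjusted p = 0.00142, adjusted p = 0.868 in edgeR's quasi-likelihood test), and p stayed under 0.05 with each of the 12 mice left out in turn.

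Ndufa6 (chr15:82350139-82354291), a LYR protein that docks the acyl carrier protein on complex I, had the largest difference of these. Its CPM in females was 5.62, 6.66 and 6.16 in WT and 8.53, 7.26 and 5.49 in Nell-1+/6R mice. In males it was 5.35, 3.52 and 3.76 in WT and 4.67, 5.12 and 4.40 in Nell-1+/6R mice. The sexes did not overlap, although the lowest female (5.49 CPM) and the highest male (5.35 CPM) were close. The log2 difference was -0.53 (SE 0.139, unadjusted p = 0.00193). Its counts were low, 41 to 108 per mouse.

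Ndufc1, Atp5md and Ndufa7 followed. Ndufc1, a small subunit of the membrane arm, stood at 32.1 ± 2.23 CPM in females and 27.1 ± 1.98 CPM in males (log2 difference -0.21, SE 0.0661, unadjusted p = 0.00754). Atp5md stood at 41.0 ± 3.22 and 35.2 ± 2.27 CPM (-0.19, SE 0.0614, unadjusted p = 0.00864). Ndufa7, of the matrix arm, stood at 44.5 ± 5.19 and 36.9 ± 2.85 CPM (-0.24, SE 0.0808, unadjusted p = 0.0111), each mean ± SD of 6 mice with unadjusted p from edgeR. Ndufa6, Ndufa7 and Ndufaf3 were the 3 members whose CPM did not overlap between the sexes (3.45%), all lower in males, against 0.223% of all genes tested.

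Of the members, 3 lie on the X chromosome, Ndufa1, Ndufb11 and Cox7b. Their log2 differences of males from females were -0.18 (SE 0.0749, unadjusted p = 0.0289), -0.10 (SE 0.0783, unadjusted p = 0.234) and -0.14 (SE 0.0553, unadjusted p = 0.0213), all in edgeR before adjustment. By genotype the 3 genes stood at -0.02, 0.02 and 0.09 on the log2 scale. Of the 18 members that passed for sex, the other 16 are autosomal.

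**Figure D4:**
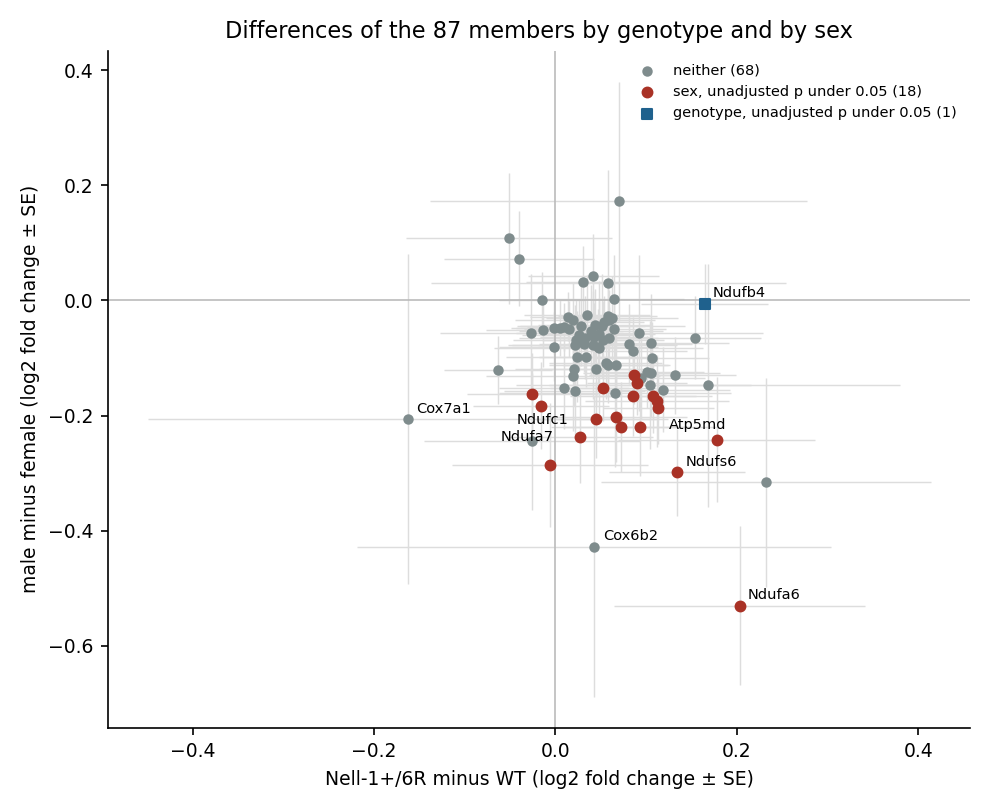
Log2 difference by genotype (horizontal axis) and by sex (vertical axis) for the 87 members, with standard errors; colours mark an unadjusted p under 0.05 in edgeR. Most points lie right of 0 (74 of 87) and below 0 (8 of 87 above it), and the 18 members marked for sex all lie below 0.

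Within each sex, genotype was tested in the 3 mice of each kind. In females, 5 members passed an unadjusted p under 0.05, all higher in Nell-1+/6R mice (5.75%, against 1.24% of all genes), with a median of 0.11 and 75 of 87 above 0 (49% of all genes). They were Ndufa8, Ndufa2, Uqcrq, Ndufs6 and Uqcr10. The median ran from 0.07 without female Nell-1+/6R replicate 1 (0.07 without replicate 2 too) to 0.18 without replicate 3, and was 0.05 with the length trend subtracted, with 67 of 87 above 0. Without female WT replicate 3, or without female Nell-1+/6R replicate 1 or 2, 1 member passed (background 1.14%, 0.969% and 0.889% higher). Without female Nell-1+/6R replicate 3, 29 members passed, all higher, and the share of all genes called also rose, to 5.12% higher and 7.71% lower. In males, 0 members passed (0 higher and 0 lower, against 3.37% of all genes), the median was -0.00 and 41 of 87 were above 0 (50.6% of all genes). The genotype effect was lower in males than in females, by its own test at an unadjusted p under 0.05, for 4 members (4.60%), against 1.68% of all genes, and 0 passed after adjustment in edgeR (0% of all genes) or in DESeq2. Other gene groups leaned the same way. Cytoplasmic ribosomal protein genes had a median genotype effect of 0.13 in females (73 of 87 above 0) and -0.05 in males, and a difference of -0.18 (2 of 87 lower by its own test), against -0.12 for the members. Oligodendrocyte markers had a median difference of -0.30 with 0 of 8 above 0, and 0 passed. For choroid plexus epithelium markers the median genotype effect was 0.73 in females, with 0 of 8 markers passing, and -3.33 in males, with 5 of 8 lower. The male effect minus the female effect had a median of -3.99, with 3 of 8 lower by its own test. Without the 3 mice with the highest sums of these markers, 1 member was lower for the difference between the sexes (background 0.96%), and 0 passed for genotype in females (background 0.706% higher and 0.988% lower).

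Ndufa8 (chr2:36036324-36049338), a twin-cysteine accessory subunit that faces the intermembrane space, had the smallest p for this difference. Its CPM in females was 5.93, 6.11 and 5.48 in WT and 10.5, 8.07 and 9.33 in Nell-1+/6R mice. In males it was 8.12, 4.80 and 6.21 in WT and 5.60, 6.06 and 4.25 in Nell-1+/6R mice. The 3 Nell-1+/6R females lay above the 3 WT females, whereas the males overlapped. The log2 fold change in females was 0.66 (SE 0.195, unadjusted p = 0.00485), and the male effect minus the female effect was -0.89 (SE 0.280, unadjusted p = 0.00739, adjusted p = 0.987 in edgeR). Both kept an unadjusted p under 0.05 with each mouse left out in turn. No 50-base stretch of Ndufa8 occurs in another annotated transcript, and its counts were 56 to 133 per mouse.

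The other 3 were Ndufa2, Ndufa4l2 and Ndufb6. For Ndufa2, a matrix-arm subunit, the difference between the sexes' effects was -0.34 (SE 0.151, unadjusted p = 0.0441), for Ndufb6, of the membrane arm, -0.27 (SE 0.123, unadjusted p = 0.0490), and for Ndufa4l2, a relative of Ndufa4 that is induced by low oxygen, -0.76 (SE 0.346, unadjusted p = 0.0461), unadjusted in edgeR. Cox6c, of complex IV, came next at -0.36 (SE 0.184, unadjusted p = 0.0705) and did not pass. With 1 mouse left out at a time, p stayed under 0.05 in 4 of 12 fits for Ndufa2, 4 for Ndufa4l2 and 3 for Ndufb6. Ndufa4l2 had 21 to 35 counts per mouse, and 31.6% of the stretches of Ndufb6 occur in another transcript.

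**Figure D5:**
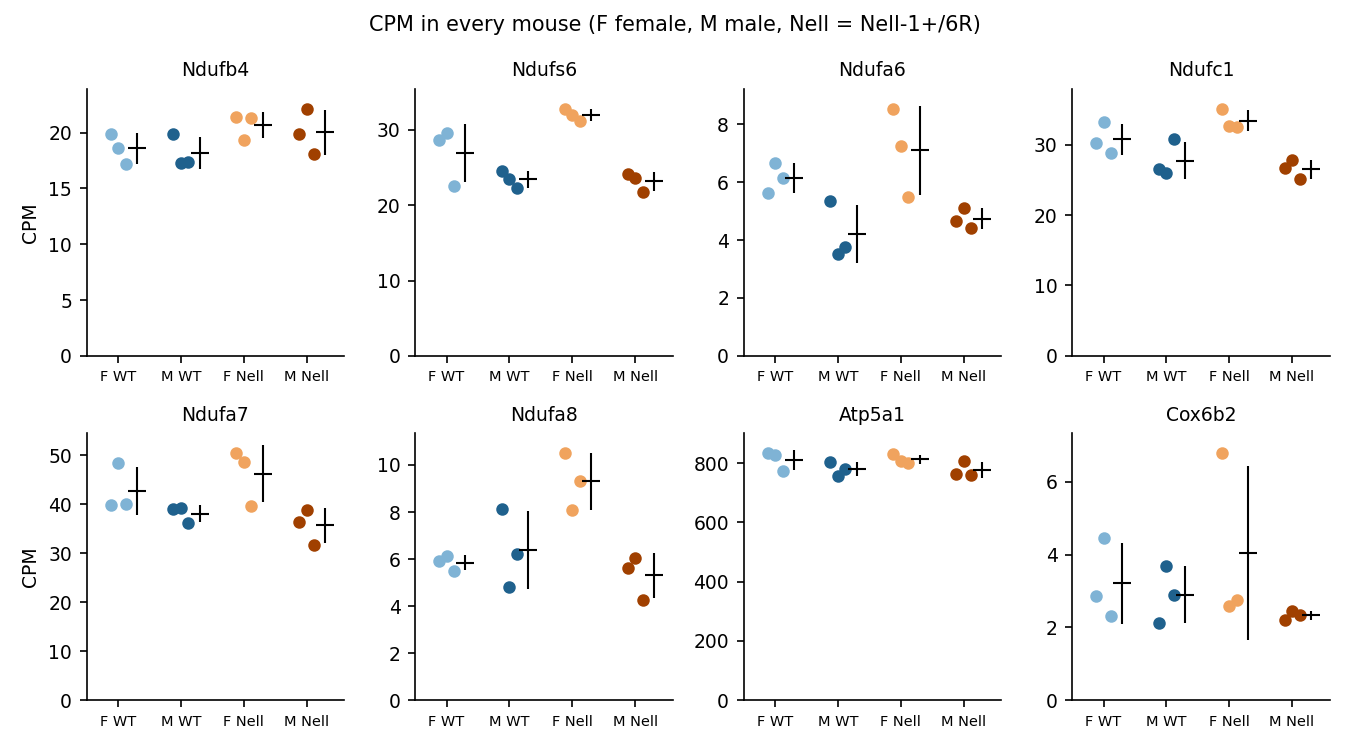
CPM of 8 members in every mouse, with the mean ± SD of 3 mice beside each group; each vertical axis starts at 0. Ndufa6 lies lower in all 6 males (at most 5.35 CPM) than in all 6 females (at least 5.49 CPM). Ndufa8 has its highest group mean in the Nell-1+/6R females, with male WT replicate 1 reaching into their range. Cox6b2 stands at 6.80 CPM in 1 mouse.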

How the data were processed

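Hippocampal RNA was read as single 50-base reads. Per the labels and the study's methods, the authors aligned reads to mm10 with HISAT2 2.1.0 and counted them per gene with featureCounts. For featureCounts the submitters' processing notes give 2.0.1, whereas the study's methods name a different version. The deposited values are raw counts per Entrez gene, not normalized and not pooled. Neither the strand setting nor the handling of reads with several places was found in the sources, and 30 members overlap another gene on the opposite strand. Of 27179 IDs, 25275 were named from RefSeq GRCm38.p6. All 12 columns matched a mouse, and 0 columns were left over. The titles of WT mice also carry the word for heterozygous, but the genotype field says WT.

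A gene entered the test when 2 or more mice reached 0.2 CPM. The test was that of edgeR 4.0.16 (quasi-likelihood test, TMM factors, sex and genotype as terms, R 4.3.3). Effects within a sex, and their difference, came from a model with 4 groups. p was adjusted by the Benjamini-Hochberg method over all 17937 genes. limma 3.58.1 and DESeq2 1.42.0 were alternatives. Per-mouse values are CPM of the library total; deviations use log2 CPM with a prior count of 2. Lengths and 50-base stretches came from GENCODE M21, in which 35 of 87 members share no stretch with another gene, 20 share over 10% and 38 share with a pseudogene. Python 3.11.15 was used for tables and figures.

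Named members are the 10 with the smallest p for genotype, the 5 with the smallest p for sex and for the genotype by sex difference, the X-linked members, and, for levels, the extremes of each complex, tissue forms, core subunits and the members of largest and smallest spread or nearest the CPM limit. The value of 1 named member is not reported here. Members and lists were chosen with earlier results of these data known.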

Additional observations from a re-analysis of the deposited data

Results flagged for a closer look

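Of 94 groups of 6 mice of a genotype tested with Dixon's ratio, 6 held a mouse that stood apart, where chance gives about 1 in 20. Nearly all groups were of named members, some of them named for a large spread in these same mice. Members also varied together, so the groups are not independent and 1 in 20 is only a rough guide. Cox6b2 stood at 6.80 CPM in female Nell-1+/6R replicate 1, against 2.20 to 2.75 CPM in the other Nell-1+/6R mice. Ndufs1 stood at 118 CPM in female Nell-1+/6R replicate 3, above the other Nell-1+/6R mice at 102 to 108 CPM. In WT mice, female WT replicate 3 was lowest for Ndufa2 (35.2 CPM, others 42.1 to 45.2) and for Cox6a2 (1.49 CPM, others 2.58 to 3.00). Ndufa7 was highest in female WT replicate 2 (48.4 CPM, others 36.1 to 40.0), and Ndufb6 was highest in male WT replicate 1 (40.0 CPM, others 36.6 to 37.7).

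The genotype effect differed between the sexes, by a test of the difference, for Ndufa8 (male minus female effect -0.89 on the log2 scale), Ndufa2 (-0.34), Ndufa4l2 (-0.76) and Ndufb6 (-0.27), each at an unadjusted p under 0.05 in edgeR and none after adjustment.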

How the results depend on the processing

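Of the log2 fold changes of named members, 609 values under an alternative kept direction and side of the threshold, 74 lost an unadjusted p under 0.05, 20 gained it and 11 changed sign. No count of members past an adjusted p under 0.05 left 0 under any alternative run. For genotype, with the share of all genes higher in brackets, 2 members passed with RLE factors (1.2%) and 2 with DESeq2 (0.914%). Without the most abundant gene 3 passed (1.35%), and 3 with the length trend subtracted (1.42%). The number was 0 without female Nell-1+/6R replicates 1 and 2 (1.58%), and 0 without the 3 mice with the highest choroid plexus sums (1.17%). Those fits hold fewer mice, which lowers what a test can find. With 1 mouse left out the number was 0 to 8 (8 without female Nell-1+/6R replicate 3, 6 without male WT replicate 1, where 2.16% and 1.61% of all genes were higher, against 1.06% as reported). For sex it was 7 without the 2 females, 6 without the choroid plexus mice, 11 with the length trend subtracted, 2 within WT mice, and 11 to 32 with 1 mouse left out. For genotype in females it was 1 without the 2 females (1.28% of all genes higher; 1 Nell-1+/6R female then remains, assumed to vary like the other groups), 0 without the choroid plexus mice, 3 with the length trend subtracted (1.32%), and 1 to 29 with 1 mouse left out. In males it was 1 with the length trend subtracted (1.38% higher) and 0 to 1 with 1 mouse left out (1 higher without male WT replicate 1, background 1.1%, and 1 lower without replicate 2, background 2.14%). For the genotype by sex difference, with the share of all genes lower in brackets, it was 1 without a filter (1.4%), 2 with DESeq2 (1.27%), 2 with limma (1.66%), 1 without the 2 females (1.48%), 1 without the choroid plexus mice (0.96%), and 1 to 14 with 1 mouse left out (14 without female Nell-1+/6R replicate 3, where 4.32% of all genes were lower and 6.01% higher). Of 87 members, 1 is 1.15%, near those shares. In the 1 Nell-1+/6R female left without the 2 females, against the 3 WT females, the members' median was -0.037, and 0.040 for the difference between the sexes. These are values of a single mouse. Ndufa1 by genotype ran from -0.059 to 0.020 and Ndufb11 from -0.014 to 0.066 with 1 mouse left out. Without the 2 females Ndufb11 stood at -0.083 by genotype and 0.0090 by sex, and Cox6c at -0.038 in females (0.15 as reported), again from 1 Nell-1+/6R female. The cause was not tested. The alternatives without pairs or sets of mice, with the length trend, and within a genotype were chosen after seeing the data.

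Same-numbered mice of a sex correlated in their deviations at -0.41 to 0.38, and 3 of 6 pairs were over 0.1. Different-numbered mice ran from -0.54 to 0.44. With so few mice per group these values cannot decide whether the numbers pair the mice. With a replicate block, 2 members passed for genotype, 21 for sex and 8 for genotype in females, beside 1.07% of all genes higher for genotype, 3.19% lower and 2.94% higher for sex, and 1.27% higher in females. Members with few counts, such as Cox7a1 with 7 to 21, limit what this depth can show.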
